A study of Mus musculus with 4 samples.

Results

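This account concerns 25 array probes for mouse transcripts that carry no RefSeq accession and that read higher in heart endothelial cells labelled G2-EC-KO than in control cells. They were picked by value from 13445 probes without a RefSeq accession, out of 41174 non-control probes in all. A probe was taken when it was well above background on both G2-EC-KO arrays, a flag that the scanner software sets per spot, and when its lowest G2-EC-KO value lay at least 0.8 log2 units above its highest control value. The value is the log2 of the background-subtracted spot signal minus that of the array's 75th percentile. The cDNAs AK037972 and AK038629, the subject of the study, were left out by the rule. Because the rule rests on the difference between the groups, that difference is a description here and was not used as a test.

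The study profiled total RNA of endothelial cells isolated from adult mouse hearts, with 2 samples from G2-EC-KO mice, which the labels also name Gata2 knock out, and 2 from control mice, named wild type. Each sample was labelled with Cy3 and hybridised to its own 1-colour Agilent oligonucleotide array. The driver of the deletion, the deleted part of Gata2 and the number of animals behind each sample are not given in the sources used here. Nothing in them says that replicates came from separate animals, though the Y-linked genes given below set the 2 control samples apart. A p-value measures the spread of these 4 arrays. Part of that spread may be technical and part, within control, a difference of sex.

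The protein GATA2 binds DNA through zinc fingers and controls genes in blood precursors and in endothelium. Array designs of this kind carry, beside probes for curated genes, probes for cDNAs and predicted transcripts that had no curated gene record. Such transcripts can be long non-coding RNAs, alternative ends of known genes, or coding transcripts that were curated later. AK accessions come from the RIKEN full-length mouse cDNA collection, BC accessions from the Mammalian Gene Collection, and ENSMUST identifiers from Ensembl. Among the members, 16 were AK cDNAs, 3 were Ensembl transcripts, 3 had identifiers that begin with NAP, 2 were BC cDNAs and 1 was the sequence record Y09632. Of these identifiers, 0 matched a gene of the RefSeq table used here, so no gene name or function is given for any of them. The table was searched by gene symbol, synonym, Ensembl entry and RefSeq transcript accession. Members carry no RefSeq accession, and most carry cDNA accessions, so such a search could hardly find them. The 0 does not show that a member belongs to no known gene. Each member had 1 probe in 1 spot, and no second probe of the same accession was on the array.

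Of all probes, 65.1% and 66.5% in G2-EC-KO and 63.8% and 65.0% in control were well above background, and saturation flagged 0 spots. With 2 arrays a group, precision is limited for every value. The Gata2 probe A_51_P516625 read 2.17 and 2.46 in G2-EC-KO and 1.86 and 2.18 in control (log2 above the 75th percentile). Its log2 difference was 0.29 (SE 0.18), higher in G2-EC-KO. Whether this probe lies inside the deleted part is not known here. It therefore does not check the deletion, and every direction rests on the labels. All 14 endothelial markers fixed for a check of the cell type, among them the cadherin gene Cdh5 and the VEGF receptor gene Kdr, were well above background on every array. The 4 Y-linked genes measured, Ddx3y, Eif2s3y, Kdm5d and Uty, were all above background in control replicate 2, whereas the other arrays had 0 such probes. Ddx3y read -7.61 in control replicate 1 and 2.38 in control replicate 2 (log2 above the 75th percentile). Control replicate 2 thus held male cells of which the other arrays showed no sign. The 2 control samples did not come from the same animals, and the spread between them is mixed with sex. The difference between the groups is partly mixed with sex as well, since control replicate 2 alone showed Y-linked signal. The medians over the members without each array stand at the end of the account of replicates.

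The members fell into 2 kinds by the same flag on the control arrays, where the rule does not ask for it. The low control value that the rule demands bears on this flag, so the split is a description. On all 4 arrays 8 members were well above background, while 17 failed that flag on both control arrays, and 0 were above it on 1 control array only. The share dim in control was therefore 68.0%. Of the 155 probes with a RefSeq accession that met the same rule, 34 were dim on both control arrays, or 21.9%. The 25 members were 0.434% of the 5766 unnamed probes well above background on both G2-EC-KO arrays, and the RefSeq probes were 0.759% of 20434. In the other direction, with the arrays' roles exchanged, 17 unnamed probes of 5646 well above background on both control arrays met the same gap. Among RefSeq probes it was 16 of 20115.

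Over the members the median fitted log2 difference was 1.80, with a range of 0.96 to 4.26, against a median of -0.0020 over the 26893 probes tested. For the 17 dim members the control level was faint and not well above background. With these at the bounds given further on, the median over the members was 1.10, with a range of 0.15 to 2.05. The median of the 25 was 0.77 with normexp, a model of signal plus background with an added offset of 50, and 1.25 with the deposited value table. In the limma fit 0 members passed an adjusted p of 0.05, where 0.00372% of all tested probes were called higher, namely 1 probe, AK038629, which is no member. All 25 members had an unadjusted limma p under 0.05, as did 4.9% of tested probes in the higher direction. The groups did not overlap at any member, which the rule itself demands, and at 23.8% of tested probes in the higher direction. These counts follow from how the members were chosen. The smallest adjusted limma p among them was 0.136, for AK007228, and the others lay between 0.387 and 0.421.

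**Figure D1:**
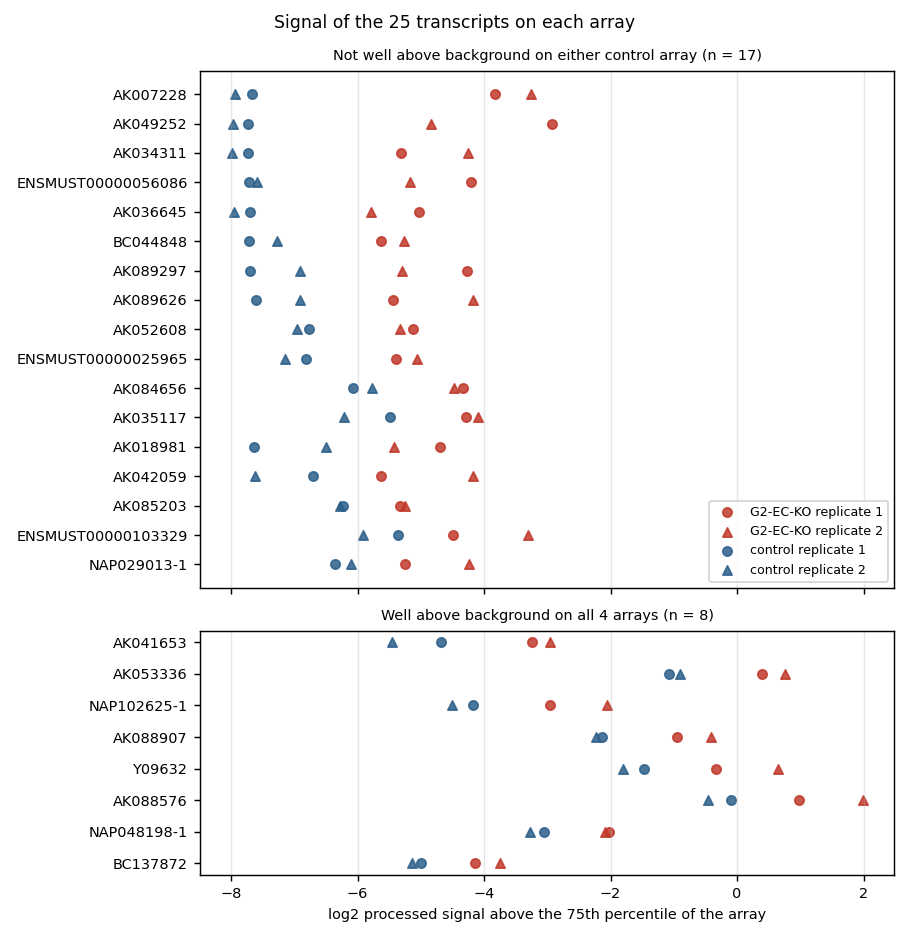
Each row is a member, each point its log2 processed signal above the 75th percentile of an array, with G2-EC-KO arrays in red and control arrays in blue. The upper panel holds the 17 members dim on both control arrays and the lower panel the 8 well above background on all arrays. Control points of the upper panel run down to -7.99, near the lowest value of an array.

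The 8 members that could be read on every array had log2 differences of 1.10 to 1.97, or 2.15-fold to 3.92-fold. Their values are given first as processed signal, the background-subtracted intensity before scaling between arrays. AK088576 read 2526 and 4691 in G2-EC-KO and 1318 and 1050 in control. On the scaled log2 values its difference was 1.76 (SE 0.37). The G2-EC-KO arrays were farther apart than the control arrays at this cDNA, yet both stood above both control arrays.

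AK053336 read 1700 and 1996 in G2-EC-KO and 666 and 770 in control, a log2 difference of 1.57 (SE 0.17). Y09632 read 1025 and 1854 in G2-EC-KO and 508 and 413 in control, a log2 difference of 1.80 (SE 0.36). The cDNA AK088907 read 668 and 889 in G2-EC-KO and 322 and 306 in control, a log2 difference of 1.5 (SE 0.21). The spots of these 3 members and of AK088576 had signals at least 9.65 times their own Feature Extraction error on every array. At AK053336 the G2-EC-KO arrays lay close together, and at Y09632 replicate 2 was the higher.

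The other members of this kind had less signal. NAP048198-1 read 317 and 278 in G2-EC-KO and 171 and 149 in control, with a log2 difference of 1.10 (SE 0.13). NAP102625-1 read 167 and 284 in G2-EC-KO and 77.6 and 62.9 in control, with a log2 difference of 1.85 (SE 0.33). AK041653 read 136 and 152 in G2-EC-KO and 55.2 and 32.7 in control, and its log2 difference of 1.97 (SE 0.29) was the largest of the 8 on the processed signal. Here the control arrays differed from each other by more than the G2-EC-KO arrays did. BC137872 read 72.9 and 88.2 in G2-EC-KO and 44.4 and 40.8 in control, and its gap of 0.85 between the groups was the smallest of all members.

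The 17 members dim in control had processed signals between 21.5 and 170 on the G2-EC-KO arrays, with a median of 40.2, and between 5.67 and 34.5 on the control arrays, with a median of 10.8. Signal over its own error was 4.49 to 9.58 in G2-EC-KO and 0.999 to 4.23 in control. Before processing, the median pixel signal stood 27.0 to 172 units above the local background in G2-EC-KO and between 4.5 units below and 40.0 above it in control, where the local background itself was 30.0 to 49.0. By a laxer flag of the software, positive and significant against background, 8 of them were also present on both control arrays, 5 on 1 and 4 on neither. Differences of these members are given as bounds on the processed signal only. Each control value was raised, where lower, to the smallest signal flagged as well above background on its array. The G2-EC-KO mean was then set against the control mean. This floor is no detection limit, since ENSMUST00000103329 stood above it unflagged in control replicate 1. "At least" refers to this floor, leaves out the spread between replicates, and need not hold under other readings. With normexp the log2 difference of AK007228 was 1.58, under its bound of 2.05, and that of AK034311 was 1.11, above its bound of 0.82. The bounds ran from 1.11-fold to 4.15-fold.

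AK007228 had the largest gap of all members. It read 90.2 and 123 in G2-EC-KO and 6.91 and 5.86 in control, which gave at least 4.15-fold. Its fitted log2 difference was 4.26 (SE 0.23). AK049252 read 170 and 41.1 in G2-EC-KO and 6.66 and 5.71 in control, at least 3.29-fold. Its G2-EC-KO arrays were 1.93 log2 units apart, the widest spread of any member, and both stood above the control arrays.

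AK034311 read 32.4 and 62.0 in G2-EC-KO and 6.63 and 5.67 in control, at least 1.76-fold. ENSMUST00000056086 read 69.9 and 32.8 in G2-EC-KO and 6.70 and 7.48 in control, at least 1.88-fold. AK036645 read 39.3 and 21.5 in G2-EC-KO and 6.77 and 5.77 in control, at least 1.14-fold. At these 5 members, AK007228 among them, both control values lay within 0.5 log2 units of the lowest value of their array. The fitted difference there, its SE and its limma p therefore depend on where the scale ends.

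BC044848 read 25.9 and 30.6 in G2-EC-KO and 6.72 and 9.25 in control, at least 1.11-fold, the smallest bound of the 17. AK089297 read 66.7 and 29.9 in G2-EC-KO and 6.78 and 11.9 in control, at least 1.76-fold. AK089626 read 29.5 and 65.3 in G2-EC-KO and 7.22 and 11.9 in control, at least 1.73-fold. For each of these 3, control replicate 1 lay near the lowest value of its array and control replicate 2 above it. AK052608 read 36.9 and 29.4 in G2-EC-KO and 12.9 and 11.5 in control, at least 1.30-fold. ENSMUST00000025965 read 30.6 and 35.2 in G2-EC-KO and 12.6 and 10.1 in control, at least 1.29-fold. At both, each G2-EC-KO value stood above each control value, as the rule demands.

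AK084656 read 64.1 and 52.8 in G2-EC-KO and 21.0 and 26.3 in control, at least 2.29-fold. AK035117 read 65.8 and 68.9 in G2-EC-KO and 31.5 and 19.3 in control, at least 2.65-fold. ENSMUST00000103329 read 57.4 and 119 in G2-EC-KO and 34.5 and 23.9 in control, at least 3.13-fold. These 3 had control signals at 2.91 to 4.23 times their error, so that their bound stands closer to their fitted difference than that of the members above. NAP029013-1 read 33.8 and 62.4 in G2-EC-KO and 17.2 and 20.8 in control, at least 1.81-fold. Of the remaining cDNAs, AK042059 had a bound of 1.62-fold, AK018981 of 1.46-fold and AK085203 of 1.24-fold. AK085203 read 32.1 and 31.0 in G2-EC-KO and 18.8 and 18.5 in control, the closest agreement within both groups among the 17.

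The dim members moved more than the others between the processed signal and the other 2 readings, which differ from it both in background correction and in an added constant. With normexp the median log2 difference of the 17 was 0.70, with a range of 0.26 to 1.58, against 2.04 on the processed signal. For the 8 it was 1.26, with a range of 0.55 to 1.69, against 1.66. AK088576 kept 1.69 and Y09632 kept 1.61 with normexp, while AK007228 had 1.58 and AK036645 had 0.68. The gap stayed at 0.8 or more with normexp in 5 of the 8 and 2 of the 17, and with the deposited value table in 7 of the 8 and 10 of the 17. The groups remained apart, with a gap above 0, at all 25 under both. Since the members were chosen on the same arrays for a gap of at least 0.8, this was largely fixed beforehand and says nothing of stability. The share of all tested probes that stayed apart under these readings is not given here.

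**Figure D2:**
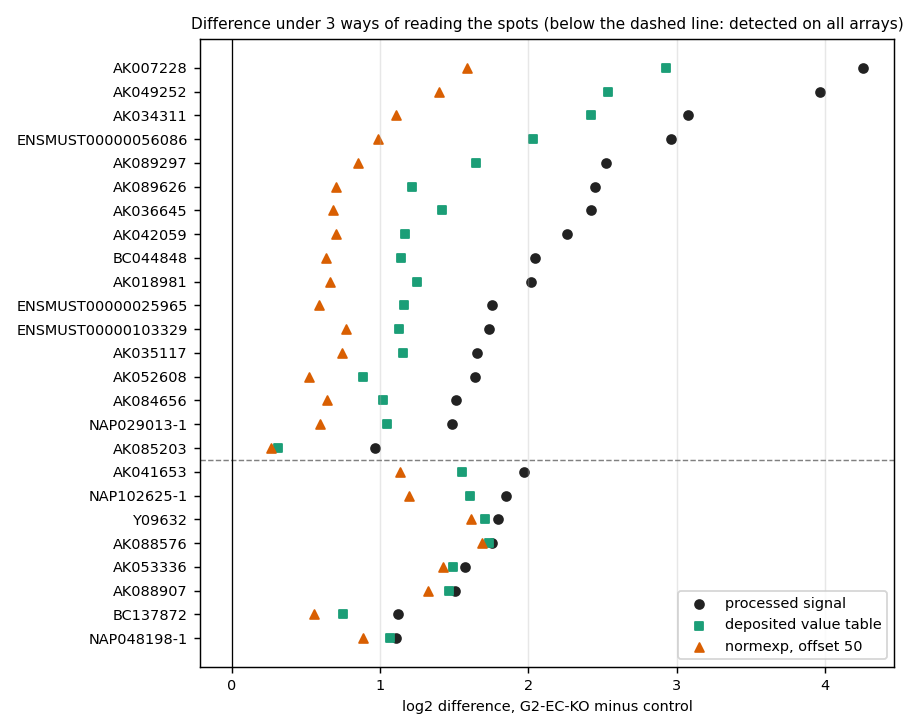
The horizontal axis is the log2 difference, G2-EC-KO minus control, of each member from the processed signal (circles), the deposited value table (squares) and normexp (triangles). Members above the dashed line were dim in control and spread widely between the readings, up to 4.26 against 1.58 for AK007228, while AK088576, well above background on all arrays, spans 1.69 to 1.76.

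The dim members were also placed unevenly on the array. Each array is a grid of 532 rows and 85 columns, which was divided, after the positions had been seen, into 4 bands of rows and 3 bands of columns. The block of rows 267 to 399 and columns 1 to 28 held 8 of the 25 members, or 32.0%, all 8 of them dim in control, and 8.05% of the unnamed probes well above background on both G2-EC-KO arrays. In it lay AK007228, AK034311, ENSMUST00000056086, AK036645, BC044848, AK089297, AK084656 and ENSMUST00000103329. The band of rows 267 to 399 as a whole held 12 of the 17 dim members and 1 of the 8 others, AK041653, with 25.8% of those unnamed probes. Of the 34 RefSeq probes that met the same gap and were dim in control, 6, or 17.6%, lay in the same block. Of all 155 RefSeq probes that met that gap, 13, or 8.39%, lay in it.

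Probes lower in G2-EC-KO by the same gap, named or not, were gathered across the slide from this block. In rows 267 to 399 and columns 57 to 85 lay 18 of the 33 such probes, or 54.5%, and in the block of columns 1 to 28 lay 2. Of the 41174 non-control probes, these blocks held 3532 and 3414. Probes that were well above background on 0 arrays show the faint signal of each region. In the block of columns 1 to 28 their median pixel signal stood 1.0 and 9.5 units above the local background in G2-EC-KO and 5.0 and 3.0 in control. In the block of columns 57 to 85 it stood 7.0 and 0 units above it in G2-EC-KO and 9.0 on both control arrays. On the processed log2 scale, the median difference of these probes was alike in both blocks, at -0.21 and -0.23.

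Taken over all spots next to a member, bright and faint together, the median did not share the member's size of difference. Within 4 rows and 4 columns of a member, the median log2 difference of the neighbouring probes ran from -0.17 to 0.15 over the 25 members. AK036645 and AK089297 lay 3 rows apart in 1 column, and ENSMUST00000056086 lay close to AK089297. At AK034311 the neighbours that were well above background on 0 arrays had a median net pixel signal of 3.0 and 9.0 units in G2-EC-KO and 3.5 and -0.5 units in control. The probe itself had net signals of 35.5 and 79.5 units in G2-EC-KO and -4.5 and 4.0 units in control. What part position has in the differences of the dim members was not tested. The 8 members well above background on all arrays lay outside that block and were spread over 5 of the 12 blocks.

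**Figure D3:**
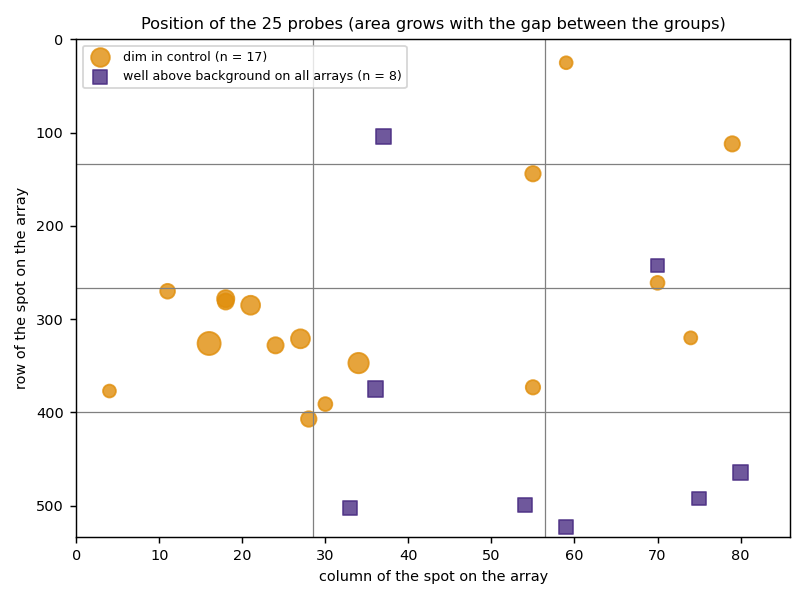
Each symbol is the spot of a member, by column and row of the array, with an area that grows with the gap between the groups. Circles are the 17 members dim in control, of which 8 lie in rows 267 to 399 and columns 1 to 28. Squares are the 8 members well above background on all arrays, and grey lines bound the 12 blocks.

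The G2-EC-KO replicates lay farther apart at the dim members than at the others. Between the G2-EC-KO arrays, the median absolute log2 difference was 0.75 for the dim members and 0.47 for the other 8, against 0.18 over all tested probes. Between the control arrays it was 0.29 and 0.27, against 0.12. These control values do not compare the agreement of replicates between the kinds. At the dim members 15 of 34 control values lay within 0.5 log2 units of the lowest value of their array, where the end of the scale limits the spread. Of the 8 members well above background everywhere, 7 were higher on G2-EC-KO replicate 2 than on replicate 1. The exception was NAP048198-1, where replicate 2 minus replicate 1 was -0.064 on the log2 scale. Of the 17 dim members 10 were higher on replicate 2 and 7 lower, and over all tested probes 52.8% were higher on it.

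Cell cycle genes, which encode the machinery of DNA replication and cell division and were listed with earlier results of these arrays known, are given beside this. Of 21 genes measured, 20 were higher and 1 lower, with a median log2 difference of 1.47, and 0 passed an adjusted limma p of 0.05. The groups did not overlap in the higher direction at 19 of them, against 23.8% of tested probes. The exceptions, picked out after their values were seen, were the spindle checkpoint gene Bub1, with a log2 difference of 0.016, and the replication clamp gene Pcna, with -0.063. The replicative helicase gene Mcm6 had 0.62 (SE 0.13). Relative to the control mean, the list's median was 1.13 on G2-EC-KO replicate 1 and 1.90 on replicate 2. The 8 members had 1.28 and 1.94, and the dim members had 1.81 and 2.05. In the list, 19 of 21 genes were higher on replicate 2. At 13 of its genes at least 1 probe of the gene met the members' gap, counting every probe of the gene. The other values of the list use 1 probe per gene. Of the RefSeq probes well above background on both G2-EC-KO arrays 0.759% met it, a share of probes and not of genes. Cardiomyocyte markers were also higher on replicate 2, at 9 of 10 genes, with medians of 0.015 on replicate 1 and 0.57 on replicate 2 above the control mean. In the endothelial list 9 of 14 genes and in the fibroblast list 6 of 9 were higher on replicate 2. The part of cell division or of cardiomyocyte RNA in the members' differences was not tested.

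**Figure D4:**
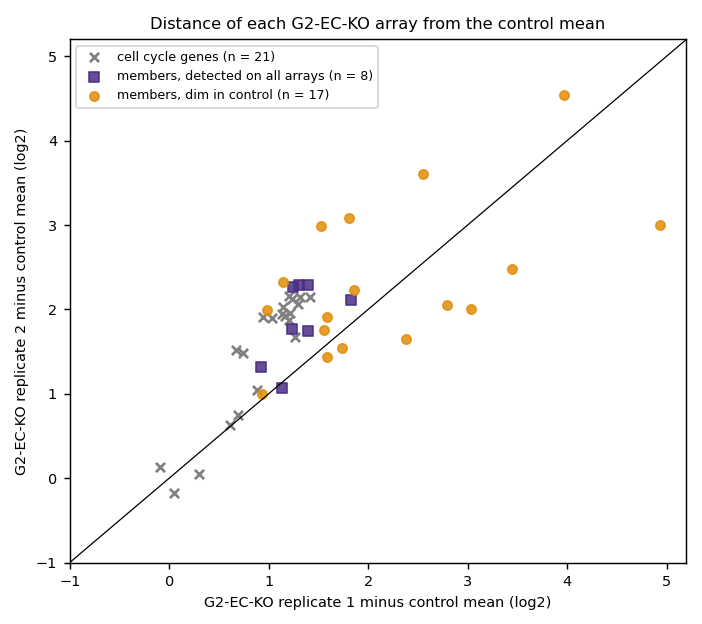
Each point is a transcript, with its distance from the control mean on G2-EC-KO replicate 1 along the horizontal axis and on replicate 2 along the vertical axis, in log2 units. The 8 members well above background on all arrays (squares) lie mostly above the diagonal, where most cell cycle genes (crosses) also lie. The 17 dim members (circles) lie on both sides of it.

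Of the markers of other cell types that a heart isolate could hold, 0 genes passed an adjusted limma p of 0.05 and 0 met the members' gap. Cardiomyocyte markers were higher at 10 of 10 genes, with a median log2 difference of 0.31, and their summed level was 99.3 and 138 times the 75th percentile in G2-EC-KO and 96.5 and 91.5 times in control. Macrophage and monocyte markers were higher at 9 of 9, with a median of 0.33 and summed levels of 10.3 and 8.73 in G2-EC-KO and 7.27 and 9.39 in control. The largest difference in these lists, singled out after its values were seen, was that of the monocyte chemokine receptor gene Ccr2, at -4.76 and -5.28 in G2-EC-KO and -7.36 and -5.97 in control (log2 above the 75th percentile). It was well above background on 0 control arrays. Its fitted log2 difference was 1.65 (SE 0.50), and its bound, with the same floor as for the dim members, was at least 1.5-fold. For the macrophage list the summed levels of the groups overlapped, and for the cardiomyocyte list they did not.

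Fibroblast markers were higher at 8 of 9, with a median of 0.16 and summed levels of 186 and 202 in G2-EC-KO and 158 and 188 in control. Pericyte and smooth muscle markers were higher at 1 of 8 and lower at 7, with a median of -0.13 and summed levels of 326 and 233 in G2-EC-KO and 315 and 286 in control. For both lists the groups overlapped. Lymphocyte markers were higher at 2 of the 6 tested, with a median of -0.038 and summed levels of 0.62 and 0.59 in G2-EC-KO and 0.98 and 0.43 in control, and Cd3g and Cd8a were well above background on 0 arrays. Erythrocyte and platelet markers were higher at 5 of the 5 tested, with a median of 0.44 and summed levels of 149 and 78.7 in G2-EC-KO and 86.4 and 75.3 in control. The endothelial markers were higher at 8 of 14, with a median of 0.020 and summed levels of 667 and 678 in G2-EC-KO and 644 and 701 in control. Fewer cells of a type and less RNA per cell cannot be told apart in such samples, and the part of these cells in the members' differences was not tested.

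As a description of how much each array weighs, the median log2 difference over the 25 was 1.96 without control replicate 1, 1.66 without control replicate 2, 2.05 without G2-EC-KO replicate 1 and 1.59 without G2-EC-KO replicate 2. At 2 members, chosen for this after their values were seen, leaving out an array moved the difference by over 1.5 times. Without G2-EC-KO replicate 2, ENSMUST00000103329 had 1.15 in place of 1.74 and NAP029013-1 had 0.98 in place of 1.49.

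The threshold of the rule divided probes with nearly equal values. Just inside it, after BC137872, NAP029013-1 had a gap of 0.86 and ENSMUST00000103329 one of 0.87. Just outside were ENSMUST00000102557 and AK012387, both with a gap of 0.79, and ENSMUST00000052581, with 0.75. AK012387 was well above background on all arrays and read -1.20 and -0.025 in G2-EC-KO and -1.99 and -2.44 in control, in log2 units above the 75th percentile.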

How the data were processed

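Spot intensity values on a linear scale were deposited by the authors, 1 scanner file per sample. Per the file headers, they came from array design 014868, were quantified with Feature Extraction 10.7.3.1 (10.5 per the submitters' processing notes), with background subtraction and spatial detrending inside each array and no normalization across arrays. Flags per spot and an error of each processed signal came from the same files. The value table that the authors also deposited equals, in 100% of its values, the median spot signal minus local background plus 16. It is linear and not centred, and its direction is that of signal.

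Of the spots, 43379 were not controls. Spots flagged as outliers, 87 to 101 per array, were left out, log2 was taken, the 75th percentile of the array over non-control spots was subtracted, and spots of a probe were averaged. Probes well above background on at least 2 arrays, 26893 in all, were fitted with limma 3.58.1 in R 4.3.3 (lmFit and eBayes on group, two-sided, Benjamini-Hochberg at 0.05 over all of them). An exact permutation test of 2 against 2 cannot go below 0.333. Tested on simulated data of 26893 probes, with 200 changed, the fit called 18.4% of log2 changes of 1, 66.4% of 2 and 88.8% of 4, shares that do not carry over to these data, where 1 probe passed.

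Accessions were named through a RefSeq table of another assembly, and no coordinates are given. The members and the lists were chosen with earlier results of these data known. Names follow a rule by gap and by detection, and the 3 members it left out, AK018981, AK042059 and AK085203, are named so that all 25 are accounted for. The parts of that rule on neighbouring genes were not used here, since no genome positions of the probes were used. Normexp was run on median in place of mean spot signals. The replicate numbers do not pair samples by the labels, and deviations of same-numbered arrays correlated at 0.044 across probes.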

Additional observations from a re-analysis of the deposited data

How the results depend on the processing

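Since the members were chosen for a gap between the groups, the positive sign of their differences is largely fixed under the 10 alternative settings run for each and says nothing of stability. The lowest of these 250 values was 0.26, and 0 passed an adjusted p of 0.05 in limma. Probes past that p numbered 2 with normexp, quantile normalization or median centring, 0 to 8 without 1 array, and 0 without a filter on dim probes, with a filter on all 4 arrays, with an intensity trend or with the replicate block. At an unadjusted p under 0.05 the fits with 0 calls gave between 1447 and 5593 probes. In this balanced design the replicate block cannot change a difference, and the adjusted limma p of AK007228 was 0.319 with it. The rule took 7 probes with normexp, 54 to 298 without 1 array, where it asks less of the group cut short, 59 at a gap of 0.5, 7 at 1.5, 4 at 2.0, 8 when all 4 arrays had to be well above background, and 54 with the laxer flag. The 7, the 8 and the 17 taken with the value table were all among the 25. The median difference of the members was 0.77 with normexp and 1.25 with the value table. With the laxer flag 4 members, not 17, were absent from both control arrays. Without the block of rows 267 to 399 and columns 1 to 28, an alternative chosen after seeing the data, 9 of 17 members were dim in control and the median difference was 1.75. The cause of these shifts was not tested. The dim members are limited by signals close to background, and all members by 2 arrays per group.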
